A study of Mus musculus with 6 samples.

Results

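Hematopoietic stem and progenitor genes are described here by 9 names, *Kit*, *Flt3*, *Cd34*, *Ly6a*, *Meis1*, *Mecom*, *Hlf*, *Myb* and *Procr*, which were matched to the gene names of the deposited tables. Of the 9, 8 had a row, out of 48733 gene names in the tables, and *Ly6a* had none. The RNA came from mice of the strain CC016/GeniUnc, an inbred strain of the Collaborative Cross, and no transgene, deletion or treatment sets the libraries apart beyond the labels. In the 3 libraries labelled bone, the source was the cortical bone of the femur after the marrow had been spun out at 2000 xg for 30 s. In the 3 labelled osteoblasts, it was stromal cells grown out of the marrow (BMSCs) and kept for 8 days in medium with dexamethasone at 10 nM, ascorbic acid at 50 µg/ml and beta-glycerophosphate at 10 mM, an osteogenic mixture. The series calls the 3 libraries of each label biological replicates, and the age of the mice is not given in the sources used here. The study's methods give 3 mice as the source of femora and marrow, but nothing in the labels ties a replicate number to a mouse, so p-values measure the spread between these libraries.

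Blood cells are made in the marrow by hematopoietic stem cells, which renew themselves and give rise to progenitors of the red, myeloid and lymphoid lineages. These cells are recognised by surface proteins such as the receptor tyrosine kinases KIT and FLT3, and they are run by transcription factors such as MEIS1, MECOM, HLF and MYB. Stromal and endothelial cells of the marrow supply their ligands, among them the KIT ligand encoded by *Kitl*. Several of these genes are also used outside the lineage, *Kit* in mast cells and *Cd34* and *Procr* in endothelial cells.

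The members' promoters differed in base composition. RefSeq on GRCm38.p6 gave a promoter for 8 of the 8 members with a row. The 250 bases before a start of transcription are shown for *Myb*, *Flt3* and *Cd34*, which had their highest values in the same 3 libraries. They are also shown for *Procr*, whose order of libraries was unlike that of these 3. The choice of these promoters was made after their values were seen. Capitals mark the GATA factor core GATAA, the MYB core AACNG and the SP1 core GGGCGG on either strand, and where matches overlap the capitals run together.
Myb: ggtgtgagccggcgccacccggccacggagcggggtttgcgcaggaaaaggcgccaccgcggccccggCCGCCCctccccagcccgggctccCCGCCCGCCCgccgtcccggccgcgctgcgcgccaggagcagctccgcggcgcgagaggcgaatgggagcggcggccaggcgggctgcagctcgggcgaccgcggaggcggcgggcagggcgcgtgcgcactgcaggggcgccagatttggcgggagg
Flt3: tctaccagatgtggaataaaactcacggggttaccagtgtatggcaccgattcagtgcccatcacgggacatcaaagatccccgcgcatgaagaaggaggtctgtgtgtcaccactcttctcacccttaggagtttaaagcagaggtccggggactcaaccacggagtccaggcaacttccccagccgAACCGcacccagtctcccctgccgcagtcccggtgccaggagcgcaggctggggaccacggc
Cd34: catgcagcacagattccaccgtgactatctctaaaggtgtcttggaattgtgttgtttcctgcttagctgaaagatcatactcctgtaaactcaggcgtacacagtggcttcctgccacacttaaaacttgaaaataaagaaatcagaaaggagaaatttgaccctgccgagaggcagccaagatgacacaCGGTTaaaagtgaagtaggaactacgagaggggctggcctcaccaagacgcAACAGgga
Procr: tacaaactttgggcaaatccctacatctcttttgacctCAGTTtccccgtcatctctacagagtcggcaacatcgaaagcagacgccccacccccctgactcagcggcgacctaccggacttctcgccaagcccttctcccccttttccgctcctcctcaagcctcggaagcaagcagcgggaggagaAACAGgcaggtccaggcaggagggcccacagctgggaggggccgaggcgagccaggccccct

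These windows lie at chr10:21160985-21161234 on the minus strand for *Myb*, chr5:147400490-147400739 on the minus strand for *Flt3*, chr1:194938571-194938820 on the plus strand for *Cd34* and chr2:155750967-155751216 on the plus strand for *Procr*. The RefSeq gene of *Procr* begins at 155751125, so part of its window lies inside the gene. The *Myb* window was 81.2% G and C with 40 CpG, that of *Flt3* 59.2% with 13, that of *Procr* 61.6% with 13 and that of *Cd34* 46.4% with 6, beside a median of 52.4% and 6 CpG over 32851 promoters. In all, 10 motifs were searched and the 3 in capitals were picked after the matches were seen. GGGCGG occurred 3 times before *Myb*, 2 of them overlapping, and not in the other 3 windows, and 32.7% of all promoters held it. AACNG occurred once before *Flt3*, at 2 places before *Cd34* and at 2 before *Procr*, and 74.2% of all promoters held it. GATAA was in none of the 4 and in 22.6% of all. The other motifs were CCGGAA (12.0% of all promoters), CCGGAAG (6.91%), TAACNG (19.8%), CANNTG (66.2%), CCAAT (33.9%), TATAAA (12.4%) and CACCC (52.0%). Of these, *Cd34* held TAACNG, *Flt3* and *Procr* held CANNTG and CACCC, and *Myb* held CACCC. A match says only that these letters occur in the window.

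Values are in FPKM, fragments per kilobase of transcript scaled to the aligned fragments of the library, and the tables imply 13565300 to 22583800 aligned pairs per library. The hemoglobin gene *Hbb-bt*, a marker of red blood cells, was above 1000 FPKM in bone replicate 3, osteoblasts replicate 2 and osteoblasts replicate 3, which are called the *Hbb-bt*-high libraries below, and at 3.43 to 7.05 FPKM in the other 3. The feature named *Hbb-bt* runs over 21200 bp and also contains the coding gene *Hbb-bs*, which had no row. Its value is thus that of a merged locus. The labels were kept as deposited, and whether libraries were exchanged between them or held blood or marrow was not tested, so each difference between the labels is one between libraries as labelled. The 7 osteoblast markers with a row, among them the type I collagen genes, summed to 5258 to 8488 FPKM under the label bone and 5566 to 7973 FPKM under the label osteoblasts. Features without a gene name took 71.5% of the summed FPKM in bone replicate 2 and 65.0% in osteoblasts replicate 1, against 27.4 to 30.7% in the other 4, and FPKM is relative to these reads too. In such bulk RNA, fewer cells of a type and less RNA per cell cannot be told apart.

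**Figure D1:**
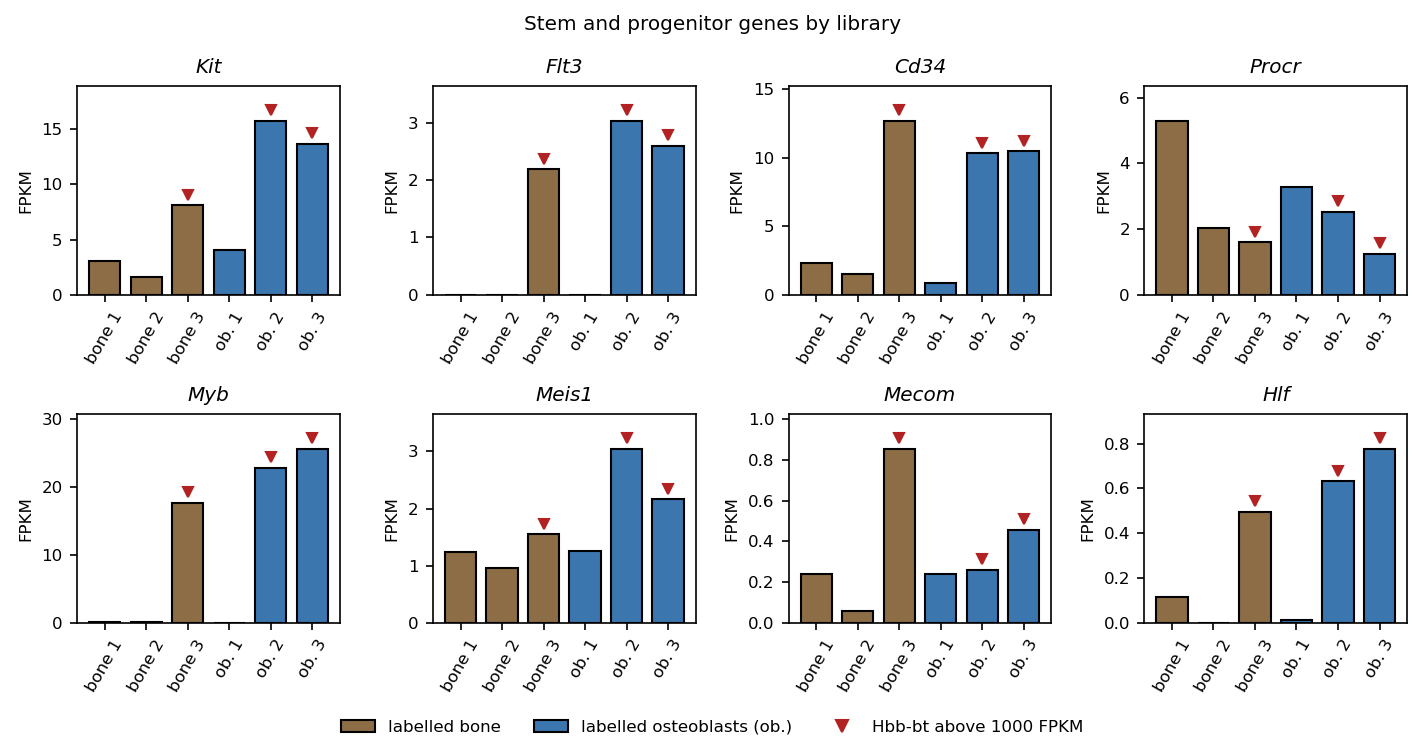
FPKM (vertical axes, from 0, each gene on its own scale) of the 8 members with a row in each of the 6 libraries, with 1 bar per library, coloured by label. Red triangles mark the 3 libraries with *Hbb-bt* above 1000 FPKM, which hold the 3 highest bars of every gene shown except *Procr*.

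Among the receptors, *Kit* was measured in every library. It lies on Chr. 5 (plus strand) from 75574916 to 75656722 (GRCm38), and it encodes the receptor of stem cell factor. *Kit* measured 3.06, 1.59 and 8.08 FPKM from bone replicate 1 to 3 and 4.06, 15.7 and 13.7 FPKM from osteoblasts replicate 1 to 3. Bone replicate 3 lay above osteoblasts replicate 1, so the labels overlapped, and osteoblasts replicates 2 and 3 were the highest. Within its library *Kit* was above 52.4 to 85.7% of the detected genes. The difference between the labels, osteoblasts minus bone on log2(FPKM + 1), was 1.23 ± 0.63 (SE, n = 3 and 3), with an adjusted p of 0.999 by limma and an exact permutation p of 0.2.

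Scaling moved the overlap of *Kit*. When each library was divided by the sum of its named genes, *Kit* came to 3.35, 2.90 and 6.0 from bone replicate 1 to 3 and to 6.76, 11.9 and 10.8 from osteoblasts replicate 1 to 3. On that scale the labels no longer overlapped, at an exact permutation p of 0.1, the smallest that 3 against 3 libraries can give. The share of all genes without overlap on that scale was not computed. The log2 difference there was 1.10 ± 0.36 (SE), and limma's adjusted p remained at 0.999, with an unadjusted p of 0.0214. Of the 11984 genes tested on that scale, 26 had an unadjusted p under 0.05 by limma.

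*Flt3*, the receptor tyrosine kinase of lymphoid and early myeloid progenitors, was detected in 3 libraries. It lies on Chr. 5 (minus strand) from 147330741 to 147400489. *Flt3* was at 0 in bone replicates 1 and 2 and 2.19 FPKM in bone replicate 3. In osteoblasts replicates 1, 2 and 3 it was at 0, 3.03 and 2.60 FPKM. The libraries with *Flt3* were thus the *Hbb-bt*-high libraries, under both labels. Where it was listed at 0, 3 read pairs would have given 0.0458 to 0.0560 FPKM, a limit for counting error only. The log2 difference between the labels was 0.73 ± 0.69 (SE), with an adjusted p of 0.999 by limma and an exact permutation p of 0.4.

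*Cd34*, which encodes a sialomucin of progenitors and endothelium, lies on Chr. 1 (plus strand) from 194938819 to 194961279. It measured 2.29, 1.5 and 12.7 FPKM from bone replicate 1 to 3 and 0.858, 10.3 and 10.5 FPKM from osteoblasts replicate 1 to 3. The highest value was under the label bone and the lowest under the label osteoblasts, and the highest was 14.8 times the lowest. The labels differed by 0.37 ± 0.86 (SE) on the log2 scale, with an adjusted p of 0.999 by limma and an exact permutation p of 1. Leaving out bone replicate 2, osteoblasts replicate 2 or osteoblasts replicate 3 turned this difference to between -0.11 and -0.06.

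*Procr*, which encodes the endothelial protein C receptor, had another order of libraries. It lies on Chr. 2 (plus strand) from 155751117 to 155755471. *Procr* measured 5.29, 2.04 and 1.60 FPKM from bone replicate 1 to 3 and 3.29, 2.53 and 1.26 FPKM from osteoblasts replicate 1 to 3. Bone replicate 1 was the highest and osteoblasts replicate 3 the lowest, so that the highest and the lowest *Hbb-bt*-high library stood on either side of bone replicate 2. Its log2 difference of -0.18 ± 0.49 (SE) had an adjusted p of 0.999 by limma and an exact permutation p of 0.8, and it turned to 0.21 without bone replicate 1 and to 0.08 without osteoblasts replicate 3.

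*Myb* had the widest range of the transcription factors. Its product drives the growth of progenitors, and it lies on Chr. 10 (minus strand) from 21124935 to 21160984. *Myb* measured 0.0158, 0.00987 and 17.6 FPKM from bone replicate 1 to 3 and 0, 22.8 and 25.6 FPKM from osteoblasts replicate 1 to 3. In the 3 libraries where it was low, its values were under the 0.0479 to 0.0586 FPKM that 3 read pairs would give. In the *Hbb-bt*-high libraries it was above 88.6 to 92.1% of the detected genes. The log2 difference between the labels was 1.68 ± 1.44 (SE), with an adjusted p of 0.999 by limma and an exact permutation p of 0.4.

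A single library decided the call for *Myb*. Without osteoblasts replicate 1 its log2 difference was 3.23 ± 0.74 (SE), with an adjusted p of 0.00733 by limma, and 312 genes were then called higher and 48 lower under the label osteoblasts. Bone replicate 3 stayed within that fit as the only *Hbb-bt*-high library of its label. Over the other alternatives the adjusted p of *Myb* lay between 0.0722 and 1.00, the lowest being without bone replicate 3.

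*Meis1*, *Hlf* and *Mecom* had lower means over the 6 libraries than *Myb*, although *Meis1* and *Mecom* were above *Myb* in the 3 libraries where it was low. *Meis1*, a homeobox gene of stem cells, measured 1.24, 0.954 and 1.55 FPKM from bone replicate 1 to 3 and 1.26, 3.05 and 2.17 FPKM from osteoblasts replicate 1 to 3. It was the steadiest of the 5 members measured above 0 in every library, with a highest value 3.2 times the lowest, and bone replicate 3 stood above osteoblasts replicate 1. The log2 difference was 0.46 ± 0.42 (SE), with an adjusted p of 0.999 by limma and an exact permutation p of 0.2. Its feature, on Chr. 11 (minus strand) from 18879817 to 19070829, reached 51789 bp beyond the RefSeq gene.

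*Hlf*, a bZIP gene of long-lived stem cells, lies on Chr. 11 (minus strand) from 90336536 to 90390895. *Hlf* measured 0.113, 0 and 0.496 FPKM from bone replicate 1 to 3 and 0.0132, 0.632 and 0.778 FPKM from osteoblasts replicate 1 to 3. The 3 highest values were again in the *Hbb-bt*-high libraries, and that of osteoblasts replicate 1 was under the 0.0385 FPKM of 3 read pairs. Its difference of 0.27 on the log2 scale had an exact permutation p of 0.4.

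*Mecom*, which encodes the zinc finger protein EVI1, lies on Chr. 3 (minus strand) from 29951296 to 30548008. *Mecom* measured 0.239, 0.0546 and 0.857 FPKM from bone replicate 1 to 3 and 0.240, 0.260 and 0.457 FPKM from osteoblasts replicate 1 to 3. All but bone replicate 3 were under 0.5 FPKM, and bone replicate 1 and osteoblasts replicates 1 and 2 lay close together. The log2 difference was -0.03, with an exact permutation p of 1. The coverage of the *Mecom* feature was 0.0106 to 0.0295 per unit of FPKM, against 0.500 to 2.61 for the other 7 members and the 2.03 to 3.39 that the depth of the libraries implies. *Procr* alone reached that range, but within each library it too was below the depth, as at 1.29 beside 2.51 in bone replicate 3. So the FPKM of every member with a row are high for their coverage. In addition, 38249 bp of the *Mecom* feature lay outside the RefSeq gene, so its FPKM are uncertain.

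*Ly6a*, which encodes the stem cell antigen Sca-1, could not be measured by name. Its RefSeq interval, Chr. 15 from 74994877 to 74998031 on GRCm38.p6, lies inside a feature named *Ly6i* that runs over 452296 bp of the minus strand, from 74979534 to 75431829. That interval holds 18 RefSeq genes, 8 of them protein coding, and 5 of the 8 had no row under their symbol, namely *Ly6a*, *Ly6c1*, *Ly6c2*, *Ly6a2* and *Ly6g2*. *Ly6g* and *Ly6f*, which had rows of their own, lie on the plus strand in GENCODE vM1. The feature measured 50.7, 27.2 and 412 FPKM from bone replicate 1 to 3 and 13.8, 402 and 361 FPKM from osteoblasts replicate 1 to 3. It was high in the *Hbb-bt*-high libraries under both labels, and its share from *Ly6a* is not known. Coverage per unit of FPKM was 0.00548 to 0.00896 in this feature. In GENCODE vM1 transcripts, 6 of the 745 windows of 75 bases in that of *Ly6a* (0.805%) also occurred in *Ly6i*, and 0 in the other 8 Ly6 genes compared.

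**Figure D2:**
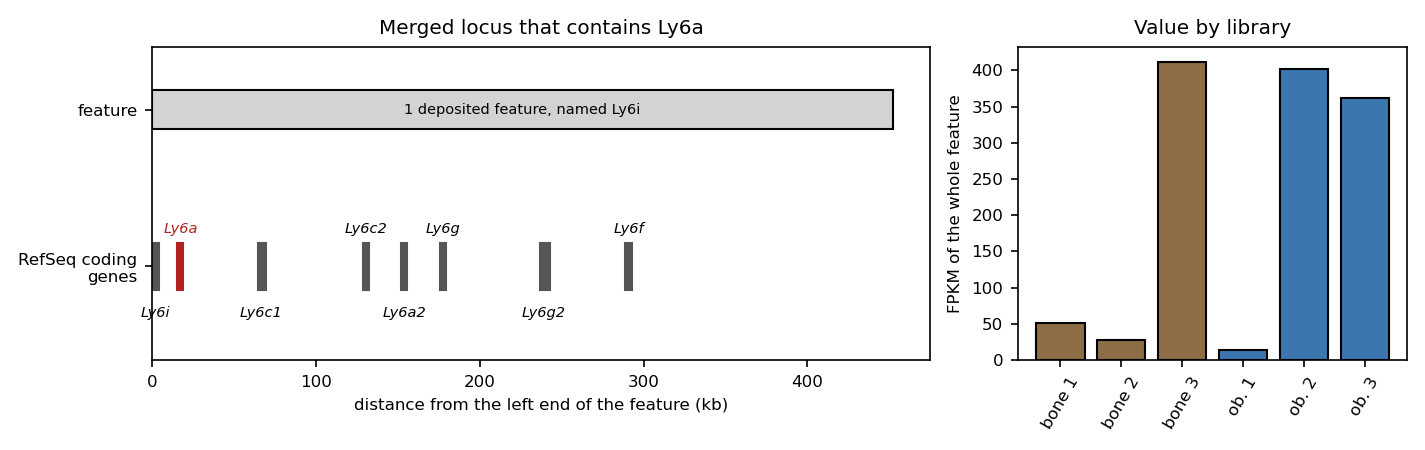
Left, the deposited feature named *Ly6i* (grey, minus strand) above the 8 RefSeq coding genes within its interval on either strand, by distance in kb from its left end. *Ly6a* is in red near that end. Right, FPKM of the whole feature in each library (brown, labelled bone; blue, labelled osteoblasts), from 13.8 to 412.

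Across the members no difference between the labels passed the test. Of the 8 with a row, 6 had a mean of at least 1 FPKM and were tested with all genes of that level, and 0 of the 6 were called. In that limma fit 0 of 12112 genes were called higher and 0 lower at an adjusted p under 0.05 (0% each), and 17 (0.14%) had an unadjusted p under 0.05. The values of the labels did not overlap for 0 of the 8 members, beside 1.67% of 27562 genes with any FPKM (0.867% higher and 0.805% lower in osteoblasts). Among the genes tested this was 0.916%, with 0.479% higher and 0.438% lower. The median log2 difference of the 6 was 0.59, beside 0.12 over all genes tested, and 5 of the 6 were on the osteoblast side, beside 62.6% of genes. *Kit* and *Meis1* were higher in osteoblasts in 3 of 3 pairs of equal number, beside 2.91% of genes. Dividing by the sum of named genes moved the median of all genes to -0.04. On that scale the members' median was 0.33, but over 5 members, since *Flt3*, at a difference of 0.65, fell below the filter. Pseudocounts of 0.1 and 0.01 put the median of the 6 at 1.07 and 1.10. Without osteoblasts replicate 2 the members' median was 0.26, again over 5 members without *Flt3*. For the 6 members it was 1.2 without bone replicate 3 and 1.31 without osteoblasts replicate 1. With the replicate number as a block, 46 genes were called higher and 3 lower, none of them a member.

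Spread within a label was wide. The median SD of log2(FPKM + 1) within a label was 0.96 for the 6 members and 0.59 for all genes tested. For *Myb* the SD was 2.43 under the label bone and 2.69 under the label osteoblasts, both wider than the difference of 1.68 between the labels. For *Kit* the SD was 0.92 and 0.95, narrower than the difference of 1.23.

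**Figure D3:**
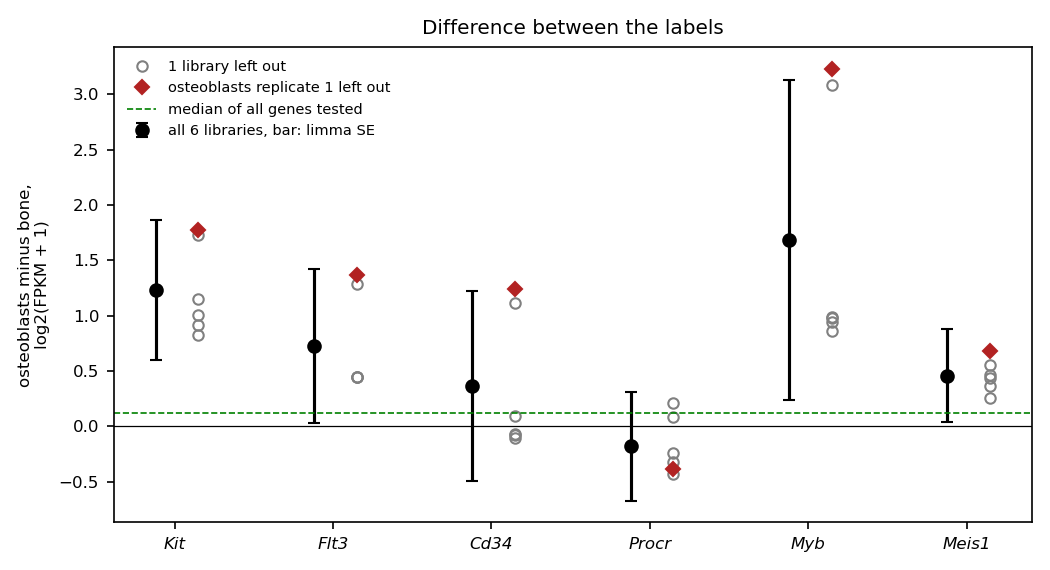
Difference between the labels on log2(FPKM + 1) for the 6 members tested (black, all 6 libraries, bar limma's SE), with the value after leaving out each library (open circles) and that without osteoblasts replicate 1 (red diamonds); the dashed line is the median of 0.12 over all genes tested. The differences of *Cd34* and *Procr* fell on both sides of 0, and that of *Myb* reached 3.23.

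The order of the members' libraries by *Hbb-bt* is given as a description with no test. In FPKM, 7 of the 8 members had their 3 highest values in the *Hbb-bt*-high libraries, *Procr* being the exception, beside 32.4% of all genes with any FPKM (38.4% of the genes tested). For 0 of the 8 were the 3 lowest values there, beside 9.32% of genes (16.9% of those tested). The count depended on the scale. In TPM, which sets every library to the same sum, it was 5 of 8, without *Meis1* and *Mecom*, beside 25.1% of genes. Divided by the sum of named genes it was 4 of 8, namely *Flt3*, *Cd34*, *Hlf* and *Myb*, beside 20.8% of genes. These 4 had this order on all 3 scales. On the last scale *Procr* had the reverse order, at 3.73 to 5.79 in the libraries with low *Hbb-bt* and 0.992 to 1.91 in the *Hbb-bt*-high libraries.

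Other transcription factors of progenitors showed both orders. Of 20 listed, 17 had a row, and *Lyl1*, *Erg* and *Ikzf1* had none. Of the 14 tested, 0 were called in either direction, with a median log2 difference of 0.18 beside the 0.12 of all genes. *Gfi1b*, a repressor of red cell and megakaryocyte progenitors, was at 0 in the 3 libraries with low *Hbb-bt*, and at 61.2, 55.8 and 53.2 FPKM in bone replicate 3, osteoblasts replicate 2 and osteoblasts replicate 3. *Tal1*, a factor of stem cells and the red lineage, was at 0.670 to 1.63 FPKM in the former and 67.6 to 75.8 FPKM in the latter. *Runx1*, needed for the first stem cells, varied less, from 6.18 to 17.8 FPKM, and bone replicate 1 was above osteoblasts replicate 2. *Bmi1*, a Polycomb gene of self-renewal, was lowest in the *Hbb-bt*-high libraries, at 1.18 to 1.59 FPKM, beside 4.40 to 7.36 FPKM in the others. In FPKM, 9 of the 17 had their 3 highest values in the *Hbb-bt*-high libraries, beside 32.4% of all genes with any FPKM. There 1 had its 3 lowest, beside 9.32% of genes, and 7 had neither. In TPM and after scaling to named genes the 9 became 6, without *Hhex*, *Spi1* and *Etv6*, beside 25.1% and 20.8% of genes. After scaling to named genes 4 had their 3 lowest values in the *Hbb-bt*-high libraries. How many of all genes did so on that scale was not computed.

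Genes listed as surface proteins of progenitors followed *Hbb-bt* in most cases. The list includes *Fgd5*, whose product is not a surface protein. Of 11 listed, 9 had a row and were tested, *Cd93* and *Cd27* having none, and 0 were called, with a median log2 difference of 0.73. *Slamf1*, which encodes the stem cell marker CD150, was at 0 in the libraries with low *Hbb-bt* and at 3.10, 5.00 and 4.66 FPKM in the others, in the same order as for *Gfi1b*. *Cd48*, a marker of committed progenitors and mature blood cells, had the reverse order, at 8.38 to 12.6 FPKM in the *Hbb-bt*-high libraries and 14.5 to 24.3 FPKM in the others. *Ptprc*, the CD45 gene of nearly all white cells, was mixed, from 11.9 to 39.3 FPKM. Of the 9, 7 had their 3 highest values in the *Hbb-bt*-high libraries in FPKM and in TPM, beside 32.4% and 25.1% of all genes. After scaling to named genes 6 did, without *Cxcr4*, beside 20.8%.

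**Figure D4:**
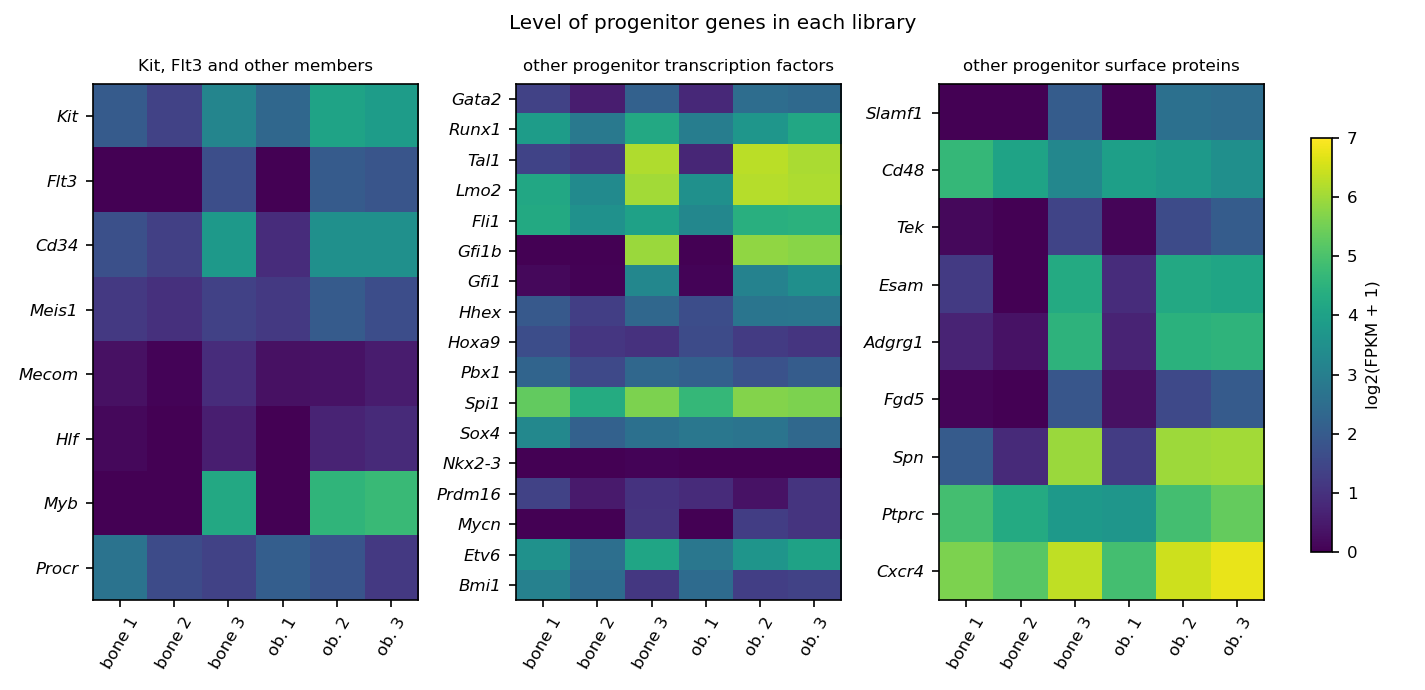
Level, as log2(FPKM + 1), of the 8 members with a row, 17 other progenitor transcription factors and 9 genes listed as other progenitor surface proteins (rows) in each library (columns). Bone replicate 3 and osteoblasts replicates 2 and 3 are bright for *Myb*, *Tal1* and *Gfi1b*, which are dark in the other 3 libraries.

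Ligands of these receptors did not follow them. *Kitl* measured 15.7, 6.50 and 2.19 FPKM from bone replicate 1 to 3 and 10.5, 2.94 and 3.13 FPKM from osteoblasts replicate 1 to 3. It was lowest in the *Hbb-bt*-high libraries, where its receptor was highest. *Angpt1*, the ligand of TEK, had the same order, from 0.770 to 2.25 FPKM there and 3.18 to 11.7 FPKM elsewhere, and *Thpo* was at 0 in all 6 libraries. *Flt3l* and *Cxcl12* had no row. Of the 2 ligands tested 0 were called.

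Ratios within a library do not depend on its scaling, and the 8 pairs computed were chosen after values were seen. *Kit* to *Kitl* was 0.195, 0.244 and 3.69 from bone replicate 1 to 3 and 0.385, 5.35 and 4.37 from osteoblasts replicate 1 to 3. *Kit* to *Ptprc* was 0.106, 0.0863 and 0.627 for bone and 0.340, 0.546 and 0.348 for osteoblasts, in replicate order. *Cd34* to *Ptprc* was 0.0793, 0.0815 and 0.984 for bone and 0.0720, 0.359 and 0.266 for osteoblasts. So both genes remained higher in the *Hbb-bt*-high libraries relative to *Ptprc*, but for *Kit* osteoblasts replicate 1 and osteoblasts replicate 3 were nearly the same. Relative to *Pecam1*, an endothelial gene, the order of *Cd34* was reversed, at 0.493 to 0.816 in the *Hbb-bt*-high libraries and 1.2 to 17.2 in the others. The 17.2 was in bone replicate 2, where *Pecam1* measured only 0.0871 FPKM. *Pecam1* was also low in bone replicate 1 and osteoblasts replicate 1, at 1.92 and 0.526 FPKM, so these ratios are uncertain. *Flt3* to *Kit* was 0.190 to 0.271 in the *Hbb-bt*-high libraries and 0 in the others, and *Myb* to *Ptprc* was 0.651 to 1.37 and 0 to 0.00055. *Myb* to *Kit* was 2.18, 1.45 and 1.87 in bone replicate 3 and osteoblasts replicates 2 and 3, and 0 to 0.00621 in the other libraries.

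**Figure D5:**
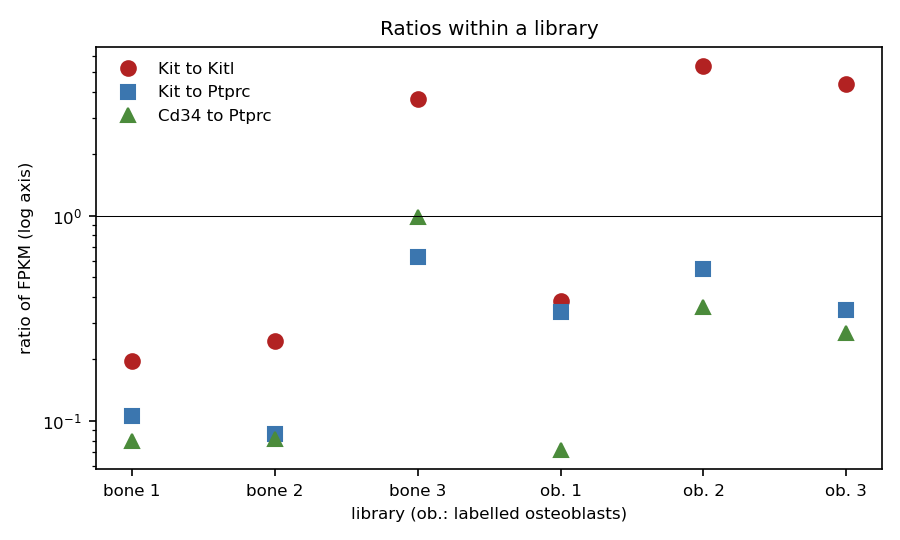
Ratio of FPKM within each library (log axis) for *Kit* to *Kitl* (circles), *Kit* to *Ptprc* (squares) and *Cd34* to *Ptprc* (triangles). *Kit* to *Kitl* was above 1, the horizontal line, in bone replicate 3 and osteoblasts replicates 2 and 3 and below it in the other 3 libraries.

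In FPKM, markers of several other cell types were highest where most members were, in the *Hbb-bt*-high libraries, and macrophage markers were lowest there. Their part in the members' values was not tested. The granulocyte-monocyte progenitor markers (5 of 5 with a row) summed to 0.386 to 1200.0 FPKM under the label bone and 0.0993 to 1417 FPKM under the label osteoblasts, and *Elane*, *Ctsg* and *Ms4a3* were at 0 in the 3 libraries with low *Hbb-bt*. The endothelial markers (8 of 8) summed to 3.05 to 152 FPKM and 7.07 to 145 FPKM. Endothelial cells share *Cd34* and *Procr*, but *Procr* did not have the order of these markers. The dividing cell markers (3 of 5) summed to 10.9 to 73.5 FPKM and 10.1 to 95.6 FPKM. Each gene of these 3 lists had its 3 highest values in the *Hbb-bt*-high libraries, beside 32.4% of all genes with any FPKM. So did the red cell markers (5 of 6), which summed to 3.85 to 36473 FPKM and 3.53 to 50353 FPKM, and the neutrophil markers (6 of 6), which summed to 2.63 to 13382 FPKM and 2.50 to 16406 FPKM. So did the megakaryocyte markers (4 of 5), at 52.9 to 599.7 FPKM and 86.7 to 746 FPKM, and the skeletal muscle markers (3 of 4), at 0.451 to 943 FPKM and 0.0324 to 461 FPKM. *Hbb-bt*, whose order was fixed by the division itself, is among the red cell markers. It made up most of their sum in bone replicate 3, at 34838 of 36473 FPKM. The macrophage markers (6 of 6) had their 3 lowest in the *Hbb-bt*-high libraries, beside 9.32% of all genes with any FPKM (16.9% of those tested). They summed to 403 to 2762 FPKM under the label bone and 422 to 1580 FPKM under the label osteoblasts. Fibroblast and osteocyte markers were divided: of 5 and 4 with a row, 2 and 1 were highest there and 2 and 1 lowest. Of the 7 osteoblast markers, 1 was highest there and 2 lowest, or 5 lowest after scaling to named genes. On that scale the share of all genes lowest there was not computed. The fibroblast markers summed to 405 to 1483 FPKM and 270.4 to 612 FPKM, and the osteocyte markers to 47.7 to 112 FPKM and 45.4 to 133 FPKM. No gene of these lists passed limma's test between the labels.

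Genes with the most similar pattern were sought by the root mean square distance between centred log2(FPKM + 1) values over the 6 libraries, among 12112 genes. *Kit* was nearest to *Mdm1* (0.19), *Usp32* (0.20) and *Ssbp2* (0.22), beside a median distance of 0.86 over genes. *Flt3* was nearest to *Dnase1l3* (0.04), *Myct1* (0.06) and *Gm44861* (0.06), with a median of 0.84. *Cd34* was nearest to *Syce2* (0.08), *Orc1* (0.12) and *Ncaph* (0.12), with a median of 1.03. Of these last, *Orc1* encodes a subunit of the origin recognition complex and *Ncaph* a subunit of condensin.

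For *Myb* the nearest were *Nxpe2* (0.10), *Hdc* (0.11), the histidine decarboxylase gene, and *Rsad2* (0.14), with a median of 2.09. *Meis1* was nearest to *Supv3l1*, *Gm12355* and *Gm10343* (0.08 to 0.09, median 0.50), and *Procr* to *Dip2a*, *Myo1e* and *Gm5566* (0.07 to 0.09, median 0.64). Among the members themselves *Kit* and *Flt3* were the closest by this distance, at 0.34, and *Myb* and *Procr* the farthest apart, at 2.61. The distance also depends on the size of a gene's changes. *Flt3* and *Myb*, whose highest values were in the same libraries, were 1.33 apart.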

How the data were processed

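RNA was sequenced from 3 libraries labelled bone and 3 labelled osteoblasts. The authors aligned 75 bp paired-end reads to GRCm38, and their processing notes name HISAT2 2.0.5, SAMtools 1.7 and StringTie 1.3.3. Each deposited table gives coverage, FPKM and TPM by feature, and no read counts. Coverage is the mean depth over a feature's bases as the authors' software deposited it, FPKM is relative to all aligned fragments, and the deposited TPM are rescaled to a common sum.

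Rows with the same gene name were summed, and unnamed features were left out. Depth was read from the ratio of coverage to FPKM and gives the level that 3 read pairs would have on a GENCODE vM1 transcript, which covers counting error only. Genes with a mean of at least 1 FPKM were compared on log2(FPKM + 1), which understates changes of low genes, with limma 3.58.1 in R 4.3.3 (trend, two-sided, Benjamini-Hochberg, threshold 0.05). Single members were compared with two-sided exact permutation tests, whose smallest p is 0.1. Names and promoters were those of RefSeq on GRCm38.p6. Python 3.11.15, pandas 2.3.3, numpy 2.4.6 and matplotlib 3.10.9 were used for the rest. Alternatives were other pseudocounts (0.1 and 0.01), other filters, TPM, scaling to the 75th percentile or to the sum of named genes, quantile normalization, no trend, a replicate block and leaving out each library, where the filter was applied to the remaining libraries.

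The members, the lists, the *Hbb-bt* division and the genes named (the members, the genes of the lists and, for each member tested, the 3 of most similar pattern) were chosen with earlier results of these data known. Libraries were not averaged or tested by their *Hbb-bt*. A further gene of the surface protein list was left out of the list and its counts and is not reported here.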

Additional observations from a re-analysis of the deposited data

How the results depend on the processing

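No member passed limma's threshold under the alternatives on all 6 libraries. Leaving out each library gave 0 to 312 genes higher and 0 to 48 lower under the label osteoblasts, 0 to 1 members called (*Myb*, without osteoblasts replicate 1, at a log2 difference of 3.23 and an adjusted p of 0.00733) and 0 to 1 members at the smallest exact permutation p. Without bone replicate 3, 1 gene was higher and 2 were lower. The log2 difference ranged over these from -0.11 to 1.24 for *Cd34*, from -0.43 to 0.21 for *Procr* and from -0.21 to 0.20 for *Mecom*. *Mecom* also turned, to 0.15 and 0.39 with pseudocounts of 0.1 and 0.01 and to 0.0022 with scaling to named genes. That scaling put 1 member, *Kit*, at the smallest exact permutation p, against 0 in FPKM, and left 4 in place of 7 members with their 3 highest values in the *Hbb-bt*-high libraries, an alternative chosen after seeing the data (5 in TPM). The share of all genes at the smallest exact permutation p was not computed under these alternatives. *Flt3* fell below the filter under scaling to named genes and without osteoblasts replicate 2. The causes were not tested.

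The replicate number as a block called 46 genes higher and 3 lower, against 0 and 0 without it, none of them a member. It put 2 members at 0.25, the smallest p of sign flips over 3 pairs. These 2, *Kit* and *Meis1*, were higher in osteoblasts in all 3 pairs, beside 2.91% of the genes tested. The deviations of libraries of equal number correlated at 0.841, -0.747 and 0.830 over 12112 genes, and not every library correlated best with its own number. The study's methods give 3 mice, but the sources used here do not say that equal numbers mark the same mouse, so whether the libraries are paired could not be settled.

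Intervals for single FPKM cannot be given without counts, and 3 libraries per label set the smallest p. The values of *Ly6a* and *Mecom* are limited by merged or long features. Every member with a row had less coverage per FPKM than the depth of the same library implies.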

Other observations

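Mast cells carry KIT throughout life, so their markers were read beside *Kit*. Of 9 listed, all with a row, 8 were at 0 in the 3 libraries with low *Hbb-bt*, where *Kit* measured 1.59 to 4.06 FPKM. In bone replicate 3 and osteoblasts replicates 2 and 3, *Cpa3*, the mast cell carboxypeptidase gene, measured 1.06, 1.63 and 1.3 FPKM, and *Kit* was 7.65, 9.65 and 10.5 times as high. The other markers were under 2 FPKM there except *Hdc*, at 17.4, 27.2 and 23.9 FPKM. Among the Ly6 genes with rows of their own, *Ly6d*, an early B cell marker, measured 25.0, 23.5 and 24.1 FPKM in these libraries and 0 to 0.161 FPKM in the others. *Ly6g*, a neutrophil marker within the interval of the merged locus but on the plus strand, measured 36.6, 36.9 and 37.1 FPKM and 0 to 0.115 FPKM. Of the 6 listed Ly6 genes with a row, 3, with *Ly6i*, had their 3 highest values there, beside 32.4% of all genes with any FPKM. *Ly6f* and *Ly6h* were at 0 in all libraries, and *Ly6k* was mixed, from 0 to 1.45 FPKM.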
